A study of Mus musculus with 8 samples.

Results

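Monocyte and macrophage marker genes were examined in brown adipose tissue (BAT) of mice with cancer-associated cachexia. The set holds 39 genes, matched by gene symbol in the deposited count table of 56953 genes, and all 39 were found. CTR mice received 100 µL of PBS and CAC mice received 3000000 Lewis lung carcinoma (LLC) cells in the same volume, placed under the skin of the right flank. All animals were wild-type C57BL/6J mice of 8 to 10 weeks at injection, male or female, with the sex of the single animals not given in the labels. Per the study's methods the mice were then followed for weeks, so the BAT came from older animals. Each group held 4 libraries made from whole BAT that was not sorted, so the RNA of adipocytes, vessels, blood and immune cells was mixed. The tumour came from 1 established line, and nothing in the labels ties each library to 1 animal, so p-values measure the spread between these libraries.

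Macrophages of adipose tissue are of several kinds. Resident macrophages are long-lived, lie along vessels and nerves, clear dead cells and carry scavenger and endocytic receptors such as Mrc1, Cd163 and Folr2. Monocytes enter from the blood with the chemokine receptor Ccr2 and the surface antigen Ly6c2, and macrophages that take up lipid from dying adipocytes are known for Trem2, Gpnmb and Lgals3. Many receptors of these cells have no signalling part of their own and pass signals through the adaptors Fcer1g and Tyrobp, which carry activation motifs that recruit the kinase Syk. PU.1, the transcription factor encoded by Spi1, binds purine-rich sites with a GGAA core in many myeloid promoters.

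Promoter sequences were available in RefSeq (GRCm38.p6) for 30 of the 39 genes, and 4 are shown for the adaptor with the smallest p and for 1 marker of each of the resident, monocyte and lipid-associated classes. Each run is the 120 bases before a RefSeq transcription start, read 5′ to 3′ on the gene's strand, and capitals mark GAGGAA or its reverse complement TTCCTC, extended to GAGGAAGT where those letters follow.
Fcer1g (chr1:171234350-171234469, minus strand): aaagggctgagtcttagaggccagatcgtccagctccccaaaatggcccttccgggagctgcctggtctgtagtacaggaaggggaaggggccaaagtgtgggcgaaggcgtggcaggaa
Mrc1 (chr2:14229294-14229413, plus strand): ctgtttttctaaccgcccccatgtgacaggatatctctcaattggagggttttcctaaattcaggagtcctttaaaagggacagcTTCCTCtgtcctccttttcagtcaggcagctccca
Ly6c2 (chr15:75111972-75112091, minus strand): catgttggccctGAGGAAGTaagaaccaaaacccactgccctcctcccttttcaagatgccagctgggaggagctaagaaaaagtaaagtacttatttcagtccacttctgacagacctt
Trem2 (chr17:48346281-48346400, plus strand): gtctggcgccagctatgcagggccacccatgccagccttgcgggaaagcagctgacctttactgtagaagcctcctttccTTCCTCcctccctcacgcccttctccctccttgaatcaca
The letters lie at position -35 before the start of Mrc1, at -40 before that of Trem2 and at -108 before that of Ly6c2, and they are not in the window of Fcer1g. Mrc1, Trem2 and Ly6c2 are the only markers of their classes with GAGGAA in the 250 bases before a listed start. Cd163, Folr2, Ccr2, Gpnmb and Lgals3 lack it there, so the marked letters are not typical of the classes. In the 250 bases before any listed start, on both strands, GAGGAA occurred in 13 of the 30 marker genes (43.3%) and in 6986 of 27025 genes of the table (25.9%). GGAAGT occurred in 12 of the 30 (40%) against 22.2% of all genes. The longer GAGGAAGT, which holds both shorter motifs, was present in Ly6c2 alone among the 30, against 2.79% of all genes. These are matches of letters and not measured binding sites.

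Sequencing depth set what could be compared. Total counts per library ranged from 2454493 to 4827956 in CTR and from 1823167 to 3392538 in CAC, and 3 counts, which a count of 0 still allows, corresponded to 0.655 to 1.61 CPM (counts per 1000000 of the TMM-scaled library). Such limits reflect counting error alone. With the edgeR filter on low counts, at about 3.52 CPM in 4 libraries, 9876 genes were tested, among them 18 of the marker genes. The other 21 had 0 to 14.5 counts per library and are described by their counts. Of the 18, 13 passed that level in all 8 libraries, 4 passed it in all 4 CAC libraries and in fewer CTR libraries, and 1 (Sirpa) passed it in fewer than 4 libraries of either group.

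The signalling adaptors Fcer1g and Tyrobp, shared by many activating receptors of phagocytes, rose in CAC BAT. Of the 8 resident, monocyte and lipid-associated markers 4 could be tested, none of them passed the adjusted threshold in edgeR, DESeq2 or limma-trend, and 1, Lgals3, had an unadjusted p under 0.05. In edgeR's quasi-likelihood fit, adjusted by Benjamini-Hochberg over all genes, 2 of the 18 tested genes passed an adjusted p of 0.05, both higher in CAC, while 0.932% of all tested genes passed in either direction. At an unadjusted p under 0.05, 11 of the 18 were higher in CAC and 0 lower, beside 7.01% and 5.93% of all tested genes. DESeq2 and limma-trend, as alternatives, called the same 2 genes, Fcer1g and Tyrobp. The log2 fold change was above 0 for 16 of the 18, with a median of 0.62, against a median of 0.00 over all tested genes. Among the 13 genes past the filter in all 8 libraries, 9 had an unadjusted p under 0.05 and 13 a log2 fold change above 0. The groups were fully separate, with CAC above CTR, for 6 of the 18, against 3.65% of tested genes. Of these 6, Cybb reached the filter level in 4 CAC and 3 CTR libraries, and the others reached it in all 8. In whole tissue, more cells of a type and more RNA per cell cannot be told apart.

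**Figure D1:**
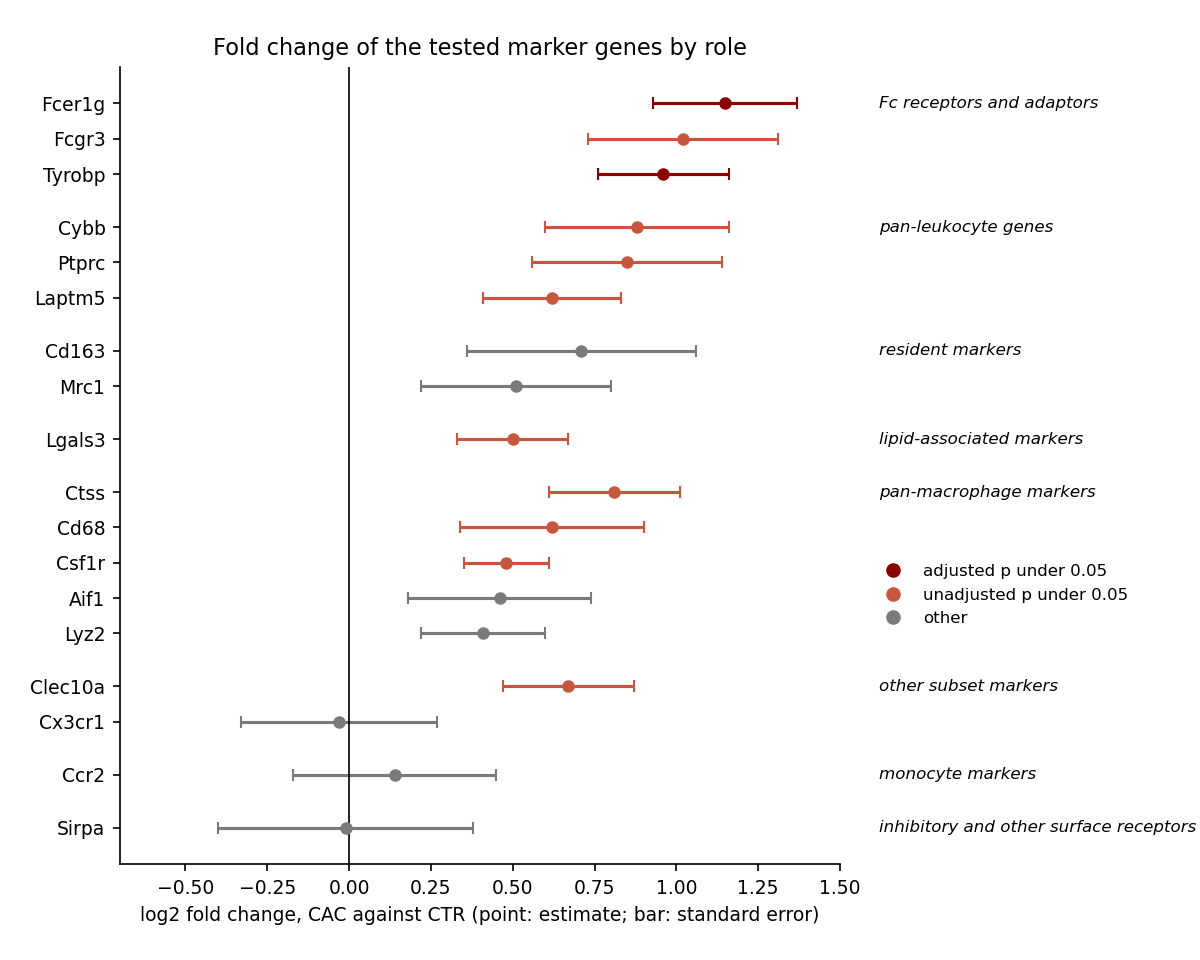
Log2 fold change (CAC against CTR, x axis) of the 18 tested marker genes with the standard error as bars, grouped by role. Fcer1g and Tyrobp, the 2 genes with an adjusted p under 0.05, sit at 1.15 and 0.96, and Cx3cr1 and Sirpa sit at -0.03 and -0.01.

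Fc receptors bind the constant part of antibodies, and their adaptors turn binding into phagocytosis. Fcer1g encodes the gamma chain shared by the activating receptors (ENSMUSG00000058715.12, GRCm38 chromosome 1, 171229572 to 171234365, minus strand). Its level was 11.4, 9.49, 6.16 and 7.64 CPM in CTR replicates 1 to 4 and 15.5, 23.7, 22.9 and 15.2 CPM in CAC replicates 1 to 4. Every CAC library therefore stood above every CTR library. The CTR mean was 8.68 ± 2.27 CPM and the CAC mean 19.3 ± 4.60 CPM (SD, n = 4). This gave a log2 fold change of 1.15 with a standard error of 0.22, a 95% interval of 0.70 to 1.61 and an edgeR adjusted p of 0.00999.

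Tyrobp, the adaptor also called DAP12 that serves Trem2 and other receptors, lies on chromosome 7 from 30413760 to 30417585 (ENSMUSG00000030579.11, plus strand). CTR replicates 1 to 4 held 9.62, 7.38, 9.04 and 8.51 CPM and CAC replicates 19.3, 11.6, 18.3 and 16.9 CPM. The groups did not overlap, with CAC replicate 2 the lowest of its group. The means were 8.64 ± 0.951 and 16.5 ± 3.42 CPM (SD, n = 4), with an estimated log2 difference of 0.96 (standard error 0.20, 95% interval 0.54 to 1.38, edgeR adjusted p = 0.0201). Both calls were lost without CAC replicate 3: the log2 fold changes were 1.04 and 0.89 with adjusted p of 0.063 for Fcer1g and 0.0881 for Tyrobp, no marker gene was called, and 8 had an unadjusted p under 0.05. Tyrobp also missed the threshold without CTR replicate 2 (adjusted p = 0.0744) and without CAC replicate 4 (adjusted p = 0.0527).

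Fcgr3, an activating receptor for immunoglobulin G that needs Fcer1g, was at 5.70, 2.64, 9.86 and 4.8 CPM in CTR and at 9.64, 10.0, 12.2 and 11.7 CPM in CAC. CTR replicate 3 overlapped the CAC range and the other CTR libraries lay below it. Its log2 difference was 1.02 (standard error 0.29, edgeR adjusted p = 0.101), and 1.35 without CTR replicate 3 (adjusted p = 0.0156). Fcgr3 reached the filter level in 4 CAC and 3 CTR libraries. Of its 75-base transcript windows, 5.42% are shared with Fcgr2b, so single reads of the pair can be uncertain. Fcgr1, the high-affinity receptor, had 2, 7, 1 and 5 counts in CTR and 1, 2, 1 and 8 in CAC. Fcgr2b, the inhibitory receptor with exons of Gm38204 on the opposite strand, had 1, 5, 4 and 12 counts in CTR and 2.2, 4.2, 10 and 7 in CAC. Neither showed separate groups. The summed level of these 5 genes was 22.7 to 27.8 CPM in CTR and 46.0 to 56.6 CPM in CAC.

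Of the 11 pan-macrophage genes 5 were tested, 3 had an unadjusted p under 0.05, and none passed the adjusted threshold in edgeR, DESeq2 or limma-trend. Ctss, a lysosomal cysteine protease that trims the invariant chain for antigen presentation, was at 13.2, 11.6, 11.5 and 10.7 CPM in CTR and at 18.2, 17.4, 28.7 and 16.2 CPM in CAC. All CAC libraries were higher, and CAC replicate 3 was set apart above the other 3. On the log2 scale the difference was 0.81 (standard error 0.20), with an edgeR adjusted p of 0.0549. Ctss passed without CAC replicate 1 (adjusted p = 0.0491), without CAC replicate 4 (0.0391) and without the genes that hold fractions of reads (0.0279). Csf1r, the receptor for the growth factors that keep macrophages alive, stood at 47.4, 43.8, 62.1 and 57.6 CPM in CTR and at 72.8, 63.2, 79.8 and 76.6 CPM in CAC. Here too the groups were separate, by a narrow margin between CTR replicate 3 and CAC replicate 2. The estimated log2 fold change was 0.48 (standard error 0.13, edgeR adjusted p = 0.0778), and 0.56 without CTR replicate 3 (adjusted p = 0.0443). On Csf1r, 4 libraries hold fractions of reads, with exons of Hmgxb3 on the opposite strand.

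Cd68, a lysosomal glycoprotein of phagocytes, held 6.06, 7.38, 6.57 and 6.11 CPM in CTR and 9.10, 7.37, 16.2 and 6.21 CPM in CAC. The CAC libraries spread widely and 2 of them lay within the CTR range. Its log2 difference was 0.62 (unadjusted p = 0.0366, edgeR adjusted p = 0.34), and it was 0.18 without CAC replicate 3 (adjusted p = 0.84). Lyz2, the lysozyme of myeloid cells, had means of 66.1 ± 18.1 and 87.2 ± 16.8 CPM, with an unadjusted edgeR p of 0.0557. Aif1, an actin-binding protein also known as Iba1, had means of 4.98 ± 1.65 and 6.76 ± 1.26 CPM (SD, n = 4 each) and an unadjusted edgeR p of 0.114. Neither passed the test.

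Adgre1, which encodes the F4/80 antigen, had 0, 2, 1 and 7 counts in CTR and 1, 2, 6 and 7 in CAC. Mpeg1, the pore-forming perforin-2, had 5, 5, 0 and 5 counts in CTR and 1, 0, 6 and 1 in CAC. Ms4a7, a membrane protein of mature macrophages, had 2, 8, 3 and 3 counts in CTR and 1, 1, 12 and 4 in CAC. The groups overlapped in all of these, and most of the Ms4a7 counts of CAC came from replicate 3. Ms4a6c, of the same family and with exons of BE692007 on the opposite strand, had 5, 3, 1.5 and 3.5 counts in CTR and 1, 0, 11 and 7.33 in CAC. Spi1, which encodes PU.1, had 10, 7, 4 and 9 counts in CTR and 7, 4, 8 and 9 in CAC. Spi1 levels therefore overlapped, at 2.25 ± 0.882 and 2.82 ± 0.753 CPM (SD, n = 4).

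**Figure D2:**
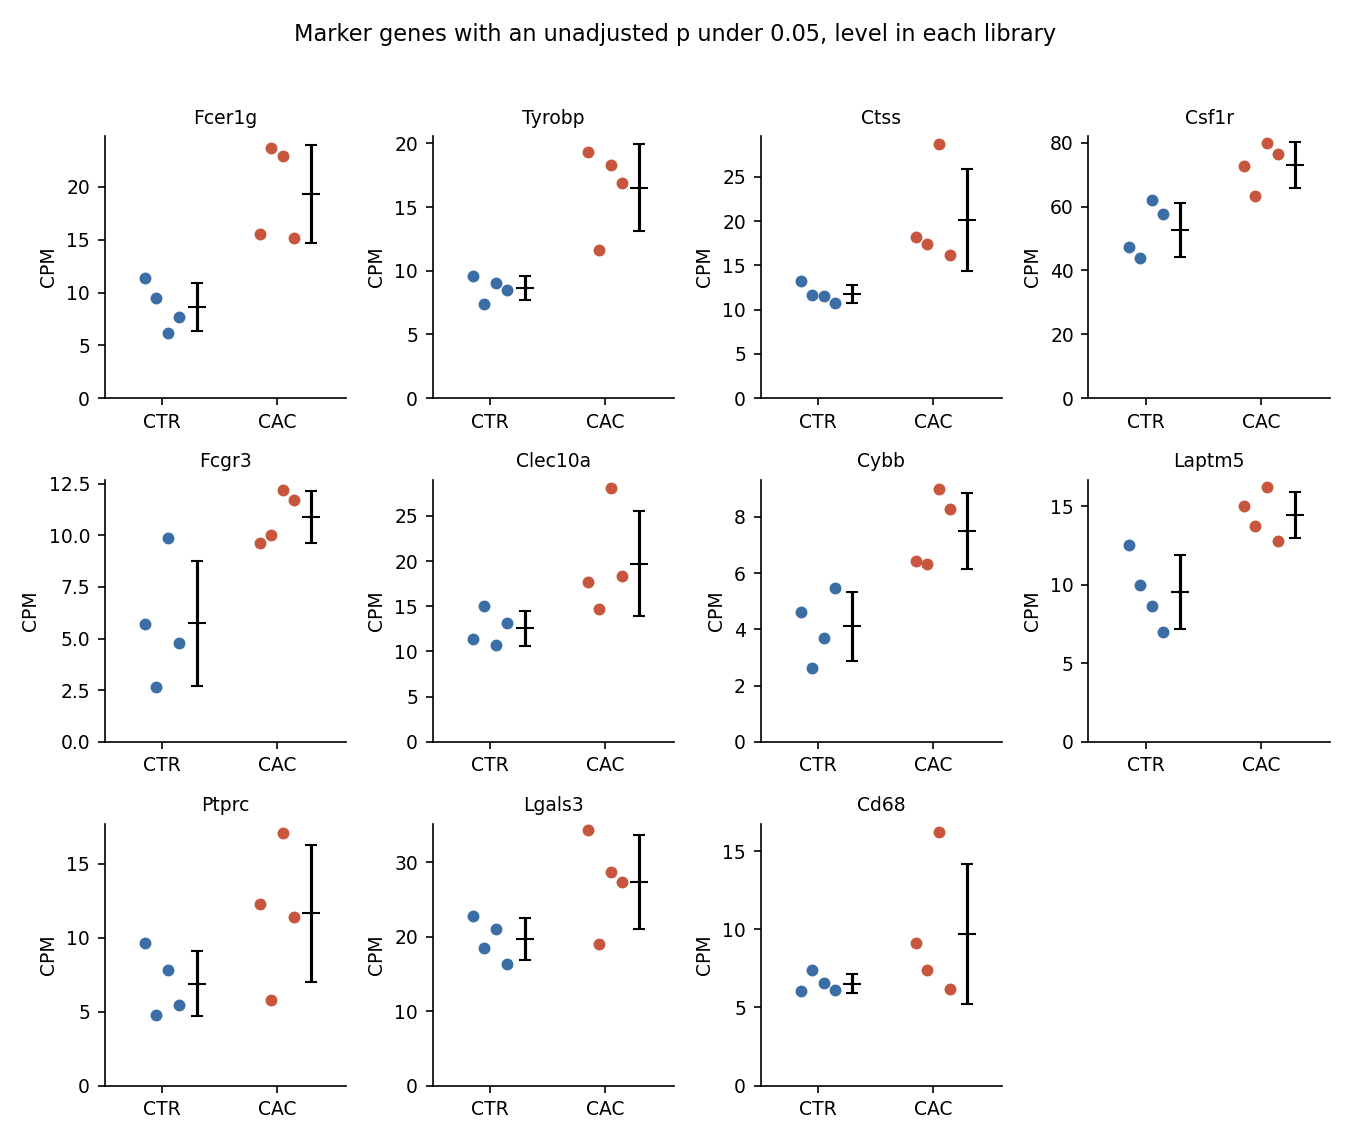
Level in CPM (y axis, from 0) of the 11 marker genes with an unadjusted p under 0.05, with 1 point per library and the mean ± SD of 4 libraries in black beside the points. For Fcer1g, Tyrobp, Ctss, Csf1r, Cybb and Laptm5 all CAC points lie above all CTR points, and CAC replicate 3 is the highest CAC point for 8 of the 11, all but Fcer1g, Tyrobp and Lgals3.

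Of 8 genes of leukocytes in general 3 were tested, and all 3 had an unadjusted p under 0.05 with higher CAC means, without passing the adjusted threshold in edgeR, DESeq2 or limma-trend. Cybb, the catalytic subunit of the phagocyte NADPH oxidase, was at 4.63, 2.64, 3.70 and 5.46 CPM in CTR and at 6.42, 6.32, 9.0 and 8.28 CPM in CAC, with no overlap. Its log2 fold change was 0.88 (standard error 0.28, edgeR adjusted p = 0.148). Laptm5, a lysosomal membrane protein of blood cells, was at 12.5, 10.0, 8.63 and 6.99 CPM in CTR and at 15.0, 13.7, 16.2 and 12.8 CPM in CAC. CTR replicate 1 and CAC replicate 4 almost touched. On the log2 scale the difference was 0.62 (standard error 0.21, edgeR adjusted p = 0.182). Ptprc, which encodes the CD45 phosphatase, was at 9.62, 4.75, 7.81 and 5.46 CPM in CTR and at 12.3, 5.79, 17.1 and 11.4 CPM in CAC. CAC replicate 2 stayed inside the CTR range while the other CAC libraries lay above it, for a log2 difference of 0.85 ± 0.29 (standard error; edgeR adjusted p = 0.182).

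Integrin chains, which hold leukocytes to vessels and matrix, were near the limit of counting. Itgam (CD11b) had 3, 5.5, 1 and 5 counts in CTR and 3, 1, 9 and 1 in CAC. Itgax (CD11c) had 1, 5, 2 and 5 counts in CTR and 1, 3, 4 and 2 in CAC. Itgb2, the beta chain that pairs with both, had 4, 6, 2 and 1 counts in CTR and 1, 0, 5 and 0 in CAC. No integrin chain separated the groups, and the mean of Itgb2 was lower in CAC (0.497 against 1.01 CPM). For Itgam, 65.2% of its windows are shared with the overlapping gene model Gm49368.

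Cd53, a tetraspanin of leukocytes, had 6, 3, 2 and 7 counts in CTR and 3, 4, 8 and 1 in CAC. Coro1a, an actin-binding coronin whose exons overlap Bola2 on the opposite strand, had 3.5, 9, 2.5 and 2 counts in CTR and 2.5, 1.5, 5.5 and 6 in CAC. Plek, a substrate of protein kinase C whose exons overlap Cnrip1 on the opposite strand, had 2, 2, 4.5 and 4 counts in CTR and 5, 1, 3 and 4 in CAC. All of these overlapped between the groups.

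Of the resident markers, Mrc1 and Cd163 were tested and did not pass, with unadjusted p of 0.0907 and 0.0596, and Folr2 was too low. Mrc1, the mannose receptor, was at 12.1, 6.33, 4.11 and 7.64 CPM in CTR and at 8.03, 6.85, 13.3 and 13.1 CPM in CAC. The highest CTR library lay above 2 of the CAC libraries. The fitted log2 fold change was 0.51 (standard error 0.29, 95% interval -0.09 to 1.10, edgeR adjusted p = 0.48), and it ranged from 0.34 (without CTR replicate 3) to 0.78 (without CTR replicate 1) with 1 library left out. Cd163, the scavenger receptor for haemoglobin bound to haptoglobin, was at 4.99, 3.43, 5.75 and 8.30 CPM in CTR and at 7.49, 5.27, 16.2 and 6.56 CPM in CAC. Only CAC replicate 3 exceeded the CTR range. On the log2 scale the difference was 0.71 (standard error 0.35, 95% interval -0.03 to 1.46, edgeR adjusted p = 0.412), and it was 0.17 without that library. Folr2, folate receptor beta, was below the filter with 4.5, 12.5, 4.5 and 5 counts in CTR and 4.5, 1, 11 and 12 in CAC. Its exons overlap Gm10602 on the opposite strand, and 4 libraries hold fractions of reads on it. The corresponding means of 1.83 ± 0.917 and 2.50 ± 1.55 CPM (SD, n = 4) overlapped.

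Of 4 further subset markers 2 were tested. Clec10a, a galactose-binding lectin of alternatively activated macrophages and some dendritic cells, was at 11.4, 15.0, 10.7 and 13.1 CPM in CTR and at 17.7, 14.7, 28.1 and 18.3 CPM in CAC. CAC replicate 2 fell within the CTR range and the other 3 lay above it. Clec10a had a log2 difference of 0.67 ± 0.20 (standard error; edgeR adjusted p = 0.122), and 0.42 without CAC replicate 3 (adjusted p = 0.421). Mgl2 shares 4.44% of its windows. Cx3cr1, the fractalkine receptor of patrolling monocytes and some resident macrophages, whose exons overlap Gm33858 on the opposite strand, had means of 4.96 ± 1.67 and 4.97 ± 1.07 CPM (SD, n = 4), with a 95% interval of the log2 difference from -0.65 to 0.60. Timd4, a receptor for phosphatidylserine on dying cells, had 0, 2, 0 and 4 counts in CTR and 1, 0, 1 and 1 in CAC. Msr1, a scavenger receptor for modified lipoproteins counted here with the pan-macrophage genes, had 0, 4, 1 and 0 counts in CTR and 6, 3, 4 and 2 in CAC. In Msr1, 3 CAC libraries lay above the CTR range (exact two-sided permutation test, p = 0.0571, not adjusted for the 21 low genes, with 0.0286 the smallest p that 4 against 4 libraries allow).

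Of the monocyte markers, Ccr2 was tested and Ly6c2 was too low. Ccr2 was at 6.41, 3.69, 6.16 and 3.27 CPM in CTR and at 3.75, 5.27, 4.35 and 6.90 CPM in CAC. The libraries of both groups were interleaved. The log2 fold change was 0.14 (standard error 0.31, 95% interval -0.51 to 0.79, edgeR adjusted p = 0.907), and its sign turned without CTR replicate 4 (-0.03) and without CAC replicate 4 (-0.06). Ly6c2 had 3.5, 2.5, 5.5 and 6.5 counts in CTR and 7.5, 4, 14.5 and 7 in CAC, which gave 1.43 ± 0.796 and 3.22 ± 1.11 CPM (SD, n = 4). CTR replicate 3 reached into the CAC range (exact two-sided permutation test, p = 0.0857, not adjusted). On Ly6c2, 6 libraries hold fractions of reads, and 9.46% of its windows are shared with Ly6c1, a gene of endothelial cells and some leukocytes. Ly6c1 itself was separate between groups, with a CTR mean of 63.3 ± 6.29 CPM, a CAC mean of 95.7 ± 6.31 CPM (SD, n = 4) and a log2 difference of 0.59 (edgeR adjusted p = 0.00999, and 0.0597 without CTR replicate 1). How many of the Ly6c2 reads belong to Ly6c1 was not tested.

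Of the lipid-associated markers, Lgals3 was tested, and Gpnmb and Trem2 were too low. Lgals3, a galactose-binding lectin also made by many other cells, was at 22.8, 18.5, 21.0 and 16.4 CPM in CTR and at 34.3, 19.0, 28.7 and 27.3 CPM in CAC. CAC replicate 2 lay among the CTR libraries and the others above them. The log2 fold change was 0.50 (standard error 0.17, unadjusted p = 0.00943, edgeR adjusted p = 0.207). Gpnmb, a transmembrane glycoprotein of lysosome-rich macrophages, had 4, 1, 1 and 5 counts in CTR and 2, 7, 10 and 10 in CAC. These counts correspond to 0.798 ± 0.552 and 2.78 ± 1.18 CPM (SD, n = 4), with CAC replicate 1 inside the CTR range and the other 3 above it (exact two-sided permutation test, p = 0.0857, not adjusted). Trem2, the lipid-sensing receptor that signals through Tyrobp, had 3, 4, 2 and 4 counts in CTR and 2, 0, 5 and 3 in CAC. Trem2 thus stayed at the limit of detection in both groups, at 0.955 ± 0.126 and 0.889 ± 0.622 CPM (SD, n = 4). No difference was detected at this depth (edgeR with no filter, unadjusted p = 0.999). Counts this low do not show that the groups are equal.

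**Figure D3:**
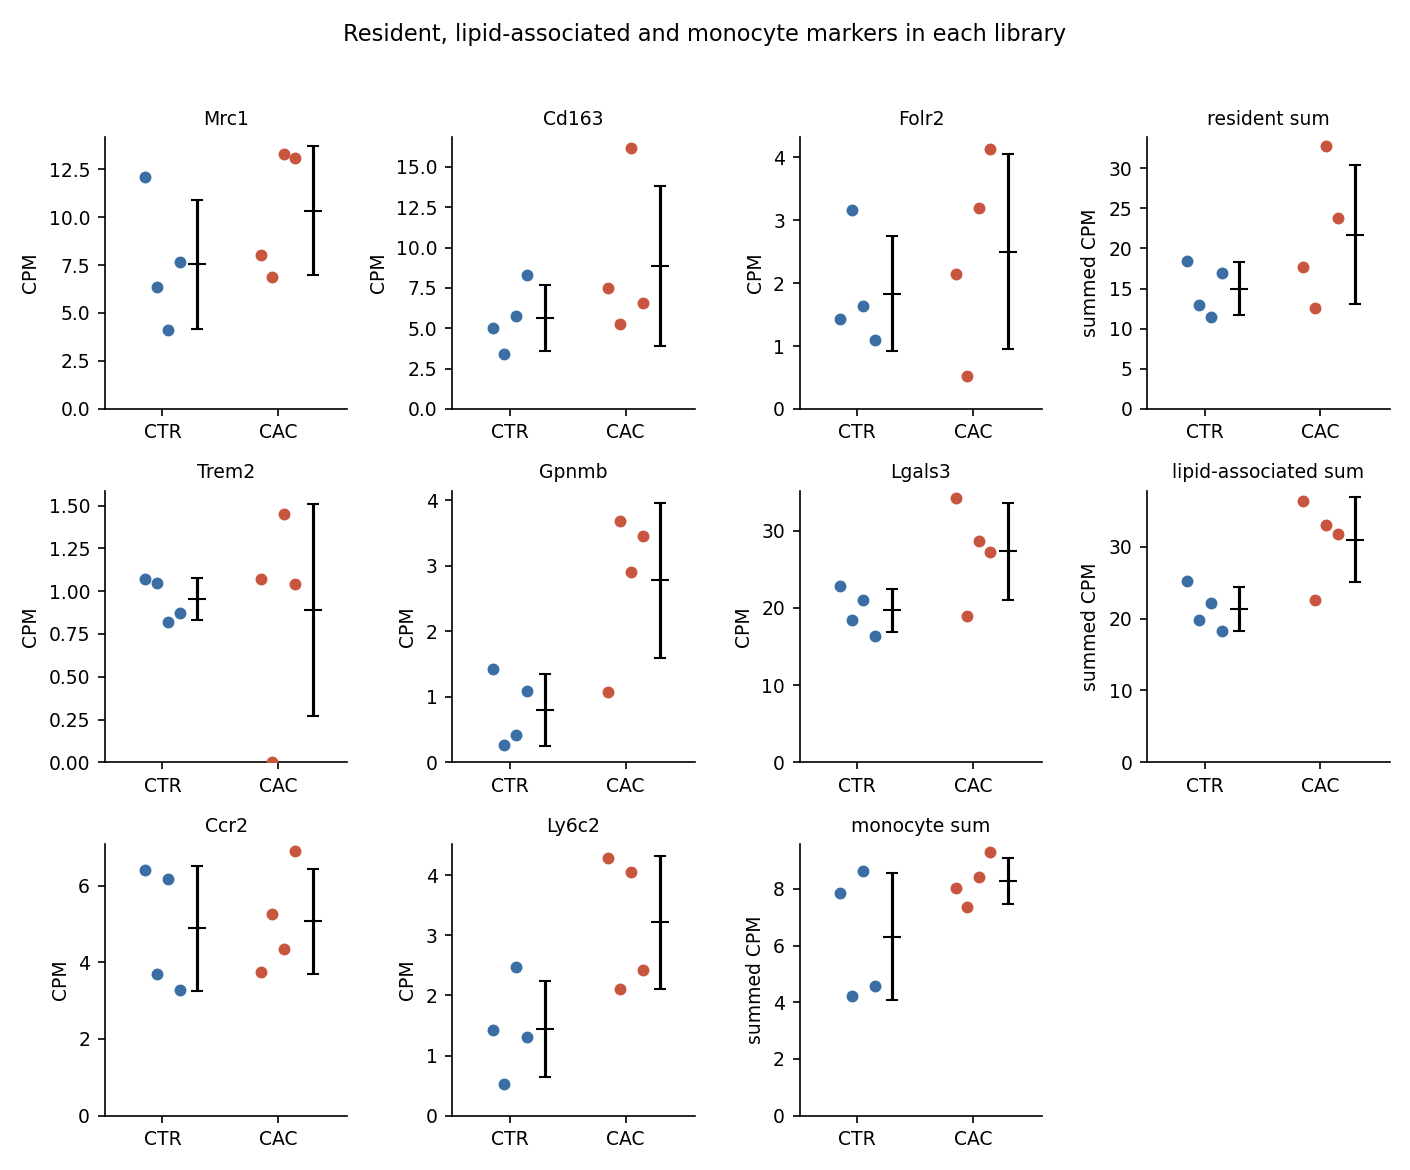
Level in CPM (y axis, from 0) of the resident, lipid-associated and monocyte markers and of the sum of each class, with 1 point per library and mean ± SD of 4 libraries in black. The resident and monocyte sums overlap between CTR and CAC, and 3 of the 4 CAC points of the lipid-associated sum lie above the CTR points, a sum made up mostly of Lgals3.

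Summed over each class and given with no test, resident markers stood at 18.5, 12.9, 11.5 and 17.0 CPM in CTR and at 17.7, 12.6, 32.8 and 23.8 CPM in CAC. The log2 ratio of the group means was 0.53, and it was 0.27 without CAC replicate 3. Monocyte markers summed to 6.32 ± 2.24 and 8.28 ± 0.814 CPM (SD, n = 4), a log2 ratio of 0.39, and 0.24 without CTR replicate 2. Lipid-associated markers summed to 21.4 ± 3.04 and 31.0 ± 5.89 CPM (SD, n = 4), a log2 ratio of 0.53, with 3 of the 4 CAC libraries above the CTR range. With Lgals3 left out, a choice made after seeing the data, the sum of Trem2 and Gpnmb was 1.75 ± 0.593 CPM in CTR against 3.67 ± 1.08 CPM in CAC, a log2 ratio of 1.07 carried by Gpnmb. Within each library the log2 ratio of the monocyte to the resident sum was -1.89 to -0.42 in CTR and -1.96 to -0.78 in CAC. The log2 ratio of the lipid-associated to the resident sum was 0.11 to 0.95 in CTR and 0.01 to 1.04 in CAC. These ranges overlapped. Against Csf1r, the resident sum was at a log2 ratio of -1.83 ± 0.45 in both groups (SD, n = 4). The log2 ratio of Fcer1g to Csf1r was -2.63 ± 0.60 in CTR and -1.95 ± 0.42 in CAC, with overlapping ranges of -3.33 to -2.06 and -2.33 to -1.42.

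Of 3 inhibitory and other surface receptors, Sirpa was tested. Sirpa, the receptor for the CD47 signal that restrains phagocytosis, had means of 4.16 ± 1.13 and 3.63 ± 2.31 CPM (SD, n = 4), with a 95% interval of the log2 difference from -0.82 to 0.79. Cd84, a self-binding receptor of leukocytes, had 7, 1, 7 and 10 counts in CTR and 4, 5, 10 and 6 in CAC. Lilrb4a, an inhibitory immunoglobulin-like receptor, had 1.75, 1.25, 1.5 and 1.5 counts in CTR and 1.67, 1.75, 2.5 and 3 in CAC. Both stayed near the counting limit, and 39.8% of the Lilrb4a windows are shared with related gene models, with fractions of reads in 7 libraries.

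Over the 21 genes outside the fit, counts totalled 319.5 in CTR and 351.65 in CAC. Their mean CPM was higher in CAC for 17 and lower for 4 (Timd4, Trem2, Itgb2 and Mpeg1). None had all CAC libraries above all CTR libraries, against 1.72% of the 7310 genes outside the fit with 3 or more counts in some library. When genes with low counts were kept, 23730 genes were tested and 3 of the 21 (Gpnmb, Ly6c2 and Msr1) had an unadjusted edgeR p under 0.05, all higher in CAC, beside 4.96% of all genes. None of the 21 passed the adjusted threshold there, where 1.48% of all genes did. Of the 18 genes of the filtered fit, 6 passed it there, namely Fcer1g, Tyrobp, Ctss (adjusted p = 0.00652), Fcgr3 (0.0145), Csf1r (0.034) and Ptprc (0.0462).

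**Figure D4:**
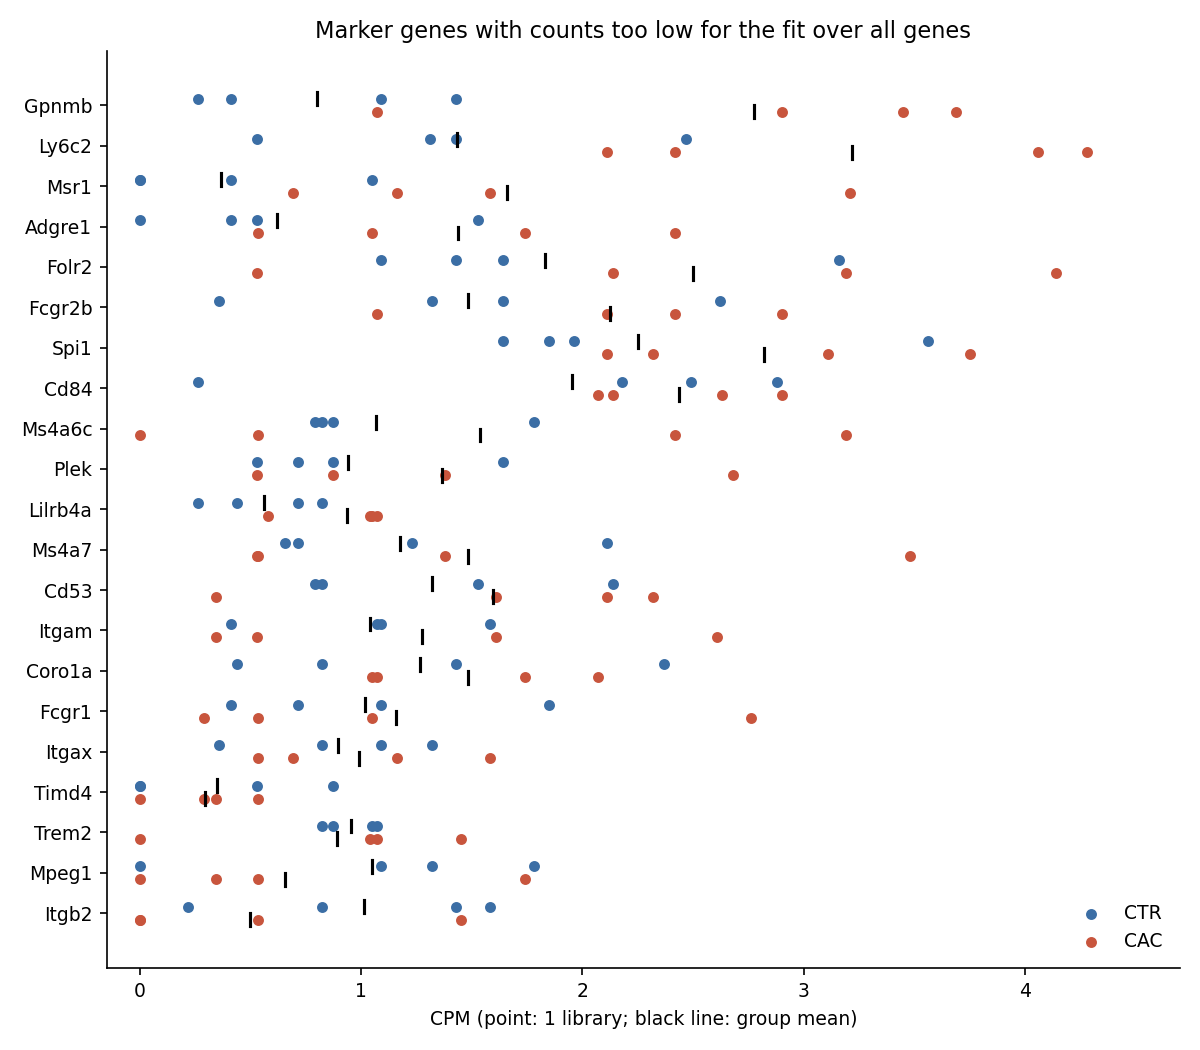
Level in CPM (x axis, from 0) of the 21 marker genes outside the fit, with 1 point per library, CTR above CAC in each row, and group means as black lines, ordered by the difference of the means. Points of the groups overlap in every row, Gpnmb has the largest difference of means (0.798 against 2.78 CPM) and Itgb2 lies at the other end (1.01 against 0.497 CPM).

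Libraries differed in how much of the marker set they held. The summed level of all 39 genes was 298, 263, 262 and 252 CPM in CTR replicates 1 to 4 and 384, 309, 478 and 391 CPM in CAC replicates 1 to 4, so the groups were separate. The most abundant of the 39 weigh most in this sum. These were Lyz2 (means of 66.1 and 87.2 CPM, edgeR adjusted p = 0.401) and Csf1r (52.7 and 73.1 CPM, adjusted p = 0.0778). CAC replicate 3 held the highest value of its group for 12 of the 18 tested genes, and CTR replicate 1 for 10 of the 18.

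Related genes outside the set were compared in lists chosen with earlier results of these data known. Among 20 other genes of resident macrophages, 17 were tested, and 6 had an unadjusted p under 0.05 and were higher in CAC. Complement C1q, which tags dying cells and is made mainly by macrophages in many tissues, rose through C1qa (42.4 to 75.6 CPM, log2 fold change 0.83, edgeR adjusted p = 0.00103) and C1qb (30.5 to 60.5 CPM, 0.98, adjusted p = 0.00138). Its partner chain C1qc had means of 12.3 and 15.3 CPM and an unadjusted p of 0.212. The median log2 fold change of the 17 was 0.26.

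Among 18 other monocyte genes, 6 were tested and 5 had an unadjusted p under 0.05, all higher in CAC, of which 1 (Ifitm6) reached the filter level in all 4 CAC and 0 CTR libraries and so was tested only through CAC. S100a4, a calcium-binding protein also made by fibroblasts and lymphocytes, rose from 14.7 to 33.0 CPM (log2 fold change 1.16, edgeR adjusted p = 0.000454). Ifitm3, an interferon-induced membrane protein made by many cell types, rose from 162 to 293 CPM (0.85, adjusted p = 0.000191). Ifitm6, of the same family, rose from 1.4 to 8.10 CPM (2.48, adjusted p = 0.000205). The other 12, among them the monocyte genes Plac8, Chil3 and Vcan, were too low to be tested.

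Among 14 other genes of lipid-associated macrophages, 10 were tested and Apoe, a lipid carrier made by adipocytes and macrophages, had an unadjusted p under 0.05 (log2 fold change 0.39, edgeR adjusted p = 0.0763) and was the only one called by DESeq2. Next came Lpl, the lipase of capillary walls (0.19, adjusted p = 0.415). Most of the list is made in quantity by fat cells, and its median log2 fold change was 0.10. Spp1, Mmp12, Cd9 and Atp6v0d2 were too low to be tested.

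Of 12 growth factors and monocyte attractants, 5 were tested and 1 passed. Ccl8, a chemokine for monocytes and T cells, was at 5.34, 3.43, 5.75 and 3.06 CPM in CTR and at 9.64, 6.85, 14.5 and 10.7 CPM in CAC (log2 fold change 1.36, standard error 0.28, edgeR adjusted p = 0.0189). All CAC libraries were above the CTR libraries. The Ccl8 call was also made by DESeq2, but not by limma-trend (1.18, adjusted p = 0.0532), and in edgeR it was lost without CTR replicate 2 (adjusted p = 0.074), CTR replicate 4 (0.0577) or CAC replicate 3 (0.106). Ccl2, the main ligand of Ccr2, had 3 counts in all of CTR and 1 in all of CAC, and Csf2 had no count in any library. Csf1, the ligand of Csf1r, differed by 0.38 on the log2 scale (standard error 0.48, edgeR adjusted p = 0.799), with 26 of its 43 CTR counts in CTR replicate 2, and by 1.23 without that library and 0.11 without CTR replicate 1.

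Among 20 other phagocyte receptors and signalling genes, 6 were tested, 3 had an unadjusted p under 0.05, and none passed the adjusted threshold in edgeR, DESeq2 or limma-trend. Syk, the kinase recruited by Fcer1g and Tyrobp, was at 1.43, 2.37, 1.64 and 3.71 CPM in CTR and at 8.03, 3.69, 6.09 and 3.80 CPM in CAC. Syk reached the filter level in 4 CAC and 1 CTR libraries, so it was tested through CAC. CAC replicate 2 just missed separation from CTR replicate 4, and the log2 fold change was 1.11 (standard error 0.37, edgeR adjusted p = 0.168). Lcp1, an actin-bundling protein of leukocytes, had a log2 fold change of 0.60 (adjusted p = 0.229). Of 7 antigen presentation genes, 6 were tested and 0 had an unadjusted p under 0.05 or passed the adjusted threshold in edgeR, DESeq2 or limma-trend, led by H2-DMb1 (0.58, adjusted p = 0.454) and H2-Eb1 (0.19, adjusted p = 0.53).

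Among the relatives of the marker genes, Fcgr4 and Cd209d also had separate groups. Fcgr4, another activating Fc receptor that signals through Fcer1g, had 1, 0, 2 and 6 counts in CTR and 6, 9, 18 and 11 in CAC. In CPM, all CAC libraries (3.21 to 5.22) lay above all CTR libraries (0 to 1.31). It was too low for the edgeR fit (exact two-sided permutation test, p = 0.0286, not adjusted and the smallest possible), and limma-trend on the normalized signal, which filters differently, called it (log2 difference 2.43, adjusted p = 0.0218). Cd209d, a lectin of the Cd209 family, was at 4.28 to 7.20 CPM in CTR and at 7.90 to 13.1 CPM in CAC, with a log2 difference of 0.81 (edgeR adjusted p = 0.121), and Lyz1 one of 0.32 (adjusted p = 0.773), which was 0.00 without CTR replicate 4 and 0.54 without CTR replicate 2. Ms4a6b had 20 counts in CTR and 40 in CAC, Ms4a6d had 26 and 24, and Lilrb4b had 10 and 13.5, with overlapping groups in each.

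Markers of other cells also differed between the groups, and their part in the results on the marker genes was not tested. Of 16 neutrophil markers 6 were tested, but 5 of these (all but Mmp9) reached the filter level in 0 or 1 CTR libraries and in 3 or 4 CAC libraries, so they entered the fit through CAC and the direction of the list is not read as a result. Among them 3 passed the adjusted threshold: S100a8 (log2 fold change 5.57), S100a9 (5.45) and Retnlg (3.40). The Retnlg call was lost without CTR replicate 1 (edgeR adjusted p = 0.0671), 2 (0.0742) or 4 (0.0523). The sum of that list was 17.7 to 20.8 CPM in CTR and 455, 210, 306 and 186 CPM in CAC replicates 1 to 4. Of the 10 untested neutrophil genes, Cxcr2 (0 counts in CTR and 18.5 in CAC), Ngp (2 and 23) and Mmp8 (1 and 10) had all CAC libraries above all CTR libraries. Such separation held for 1.72% of the 7310 genes outside the fit with 3 or more counts in some library. The groups overlapped for the other 7 neutrophil genes, among them Csf3r (3 and 13), Ly6g (0 and 2) and Mpo (0 and 2). The order of the CAC libraries differed from that of the 39 marker genes, where replicate 3 was highest and replicate 2 lowest.

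Neutrophils also express many genes of the marker set. Split by textbook knowledge, 19 of the 39 are known also from neutrophils, with 9 tested, 7 at an unadjusted p under 0.05 and 2 past the adjusted threshold, Fcer1g and Tyrobp. The other 20, little known there, had 9 tested, 4 (Ctss, Csf1r, Clec10a and Cd68) at an unadjusted p under 0.05 and 0 past the adjusted threshold in edgeR, DESeq2 or limma-trend. Their summed level was 113 to 130 CPM in CTR and 140 to 224 CPM in CAC, with no overlap. Csf1r, with means of 52.7 and 73.1 CPM and an edgeR adjusted p of 0.0778, made up the largest part of that sum. The sum of the 19 was 121 to 179 CPM in CTR and 170 to 254 CPM in CAC, with 3 of the 4 CAC libraries above the CTR range.

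**Figure D5:**
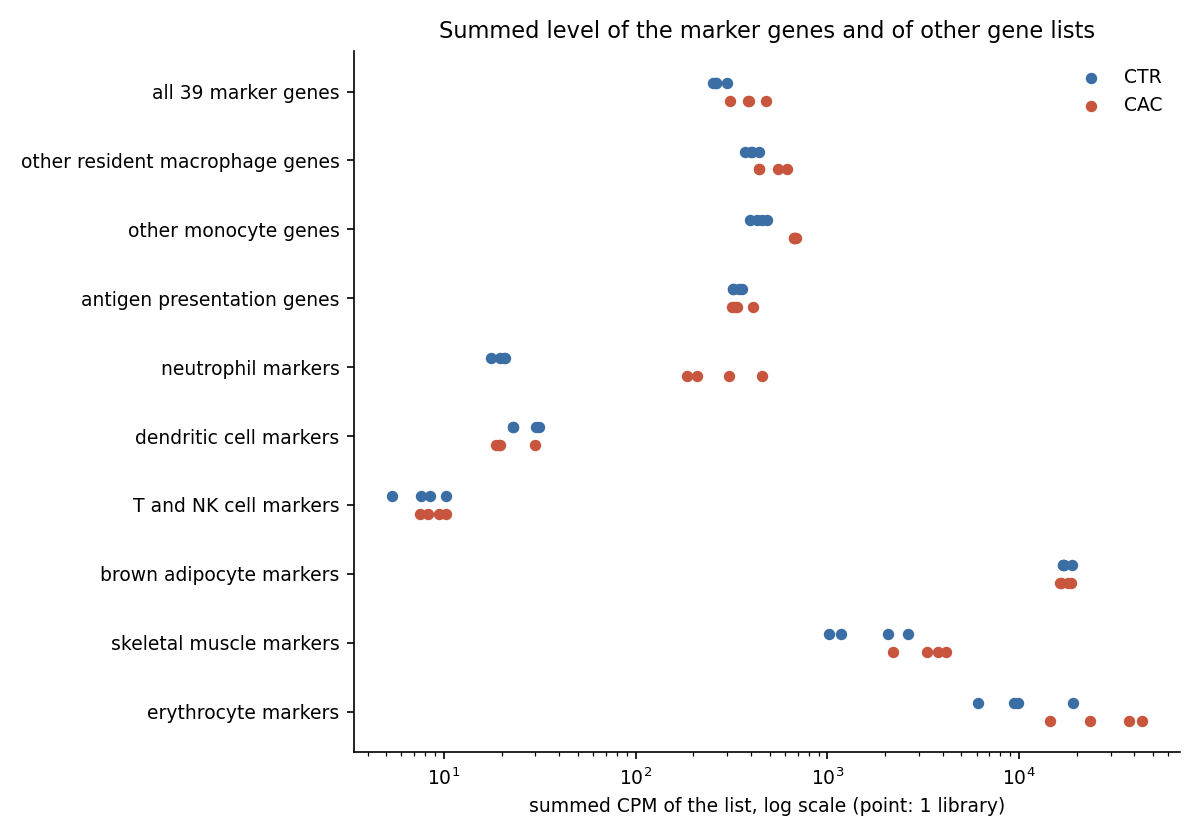
Summed level of the 39 marker genes and of other gene lists (x axis, CPM on a log scale), with 1 point per library, CTR above CAC in each row. The marker genes go from 252 to 298 CPM in CTR to 309 to 478 CPM in CAC, neutrophil markers from 17.7 to 20.8 to 186 to 455 CPM, and the dendritic, T and NK and brown adipocyte lists overlap between groups.

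Dendritic cell markers (10 listed, 2 tested) summed to 22.8 to 31.2 CPM in CTR and 18.6 to 30 CPM in CAC, with Zbtb46 at a log2 difference of -0.50 (edgeR adjusted p = 0.254) and Irf8 at 0.13 (adjusted p = 0.92). T and NK cell markers (12 listed) had no tested gene and summed to 5.34 to 10.3 and 7.49 to 10.2 CPM, with Cd3g at 0 in every library. B cell markers gave 24.5 to 39.5 and 25.3 to 39 CPM, with Ighm at -0.21 (adjusted p = 0.822) and Igkc at 0.05 (adjusted p = 0.959). Mast cells, which also use Fcer1g, gave 9.26 to 21.8 and 12.6 to 23.8 CPM, with Ms4a2 and Fcer1a at 0 in every library, Cpa3 at 0.53 (adjusted p = 0.554) and Mcpt4 at 0.46 (adjusted p = 0.68). With 1 library left out, Mcpt4 ranged from 0.25 (without CTR replicate 1) to 0.71 (without CAC replicate 2), and Ighm from -0.57 (without CAC replicate 3) to -0.04 (without CAC replicate 1 or 2). Among these lists 1 gene, Zbtb46, had an unadjusted p under 0.05, and none passed the adjusted threshold in edgeR, DESeq2 or limma-trend.

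Erythrocyte markers summed to 6120 to 19100 CPM in CTR and 14500 to 43900 CPM in CAC, with Slc4a1, the anion exchanger of red cells, called (log2 fold change 3.88, edgeR adjusted p = 0.00343), although it reached the filter level in 4 CAC and 0 CTR libraries and so was tested only through CAC. Skeletal muscle markers summed to 1020 to 2620 and 2190 to 4160 CPM, led by Myh4 (1.30, adjusted p = 0.21) and Tnnt3 (1.13, adjusted p = 0.291), and DESeq2 called Myh4 (adjusted p = 0.0265). Brown adipocyte markers, which define the labelled tissue, were abundant in every library at 16900 to 18900 CPM in CTR and 16300 to 18600 CPM in CAC, with log2 fold changes above 0 for 5 and below 0 for 5 of the 10. At an unadjusted p under 0.05, 4 were lower in CAC and 0 higher, namely Plin1 (-0.27, adjusted p = 0.192), Pparg (-0.71, adjusted p = 0.261), Cox8b (-0.22, adjusted p = 0.285) and Cox7a1 (-0.22, adjusted p = 0.292), and none passed the adjusted threshold in edgeR, DESeq2 or limma-trend. All CAC libraries lay below all CTR libraries for Plin1, Cox8b and Cox7a1, and the share of all tested genes with such separation is not given here. Endothelial markers summed to 1210 to 1240 and 969 to 1450 CPM, with 2 of 7 tested log2 fold changes above 0 and 5 below, and the smallest p for Kdr (-0.32, adjusted p = 0.26) and Pecam1 (0.26, adjusted p = 0.426). Fibroblast and progenitor markers summed to 524 to 703 and 441 to 662 CPM, with 3 of 8 log2 fold changes above 0 and 5 below, and the smallest p for Col1a2 (-0.61, adjusted p = 0.318) and Dpt (-0.28, adjusted p = 0.39). With no filter Pparg (adjusted p = 0.000372) and Col1a2 (0.000609) passed, both lower in CAC. With the erythrocyte, muscle and neutrophil genes taken out of the library sizes, an alternative chosen after seeing the data, 2 marker genes were called and 11 had an unadjusted p under 0.05, all higher in CAC.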

How the data were processed

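RNA of whole BAT was sequenced in 4 CTR and 4 CAC libraries of single-end reads. Per the labels and the study's methods, the authors checked reads with FastQC 0.11.9, aligned them to mm10 with HISAT2 2.2.1 and counted them with featureCounts with its multi-mapping option. The strand setting is not given in the sources used here. The deposited count table gives an expected count for each gene, not normalized, in which some reads were split into fractions. A further deposited table holds a signal that the authors normalized by 1 size factor per library, used in 1 alternative. Labels and columns spell the control name differently, and columns were matched by group and number.

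These values were rounded and tested in edgeR 4.0.16 (R 4.3.3, filterByExpr with a count minimum of 10, TMM, robust quasi-likelihood fit, CAC against CTR without a covariate, Benjamini-Hochberg adjustment over 9876 genes, threshold 0.05). CPM used TMM-scaled library sizes, and depth is given as total counts per library, where 3 counts equal 0.655 to 1.61 CPM. Exact two-sided permutation tests over 70 assignments compared single low genes. The code was tested on simulated data. The marker genes and all lists were chosen with earlier results of these data known. Values in every library are given for the 8 resident, monocyte and lipid-associated markers, for genes with an unadjusted p under 0.05 and for genes outside the fit with 3 or more counts in some library, and group means for the rest. From each related list the genes past the adjusted threshold are named, otherwise the 2 with the smallest p, apart from an item that is not reported here. Csf1, Ccl2, Csf2, C1qc, Cox7a1, Cox8b, the untested genes of the lists and the defining neutrophil genes were named after their values were seen. Shared sequence was measured as 75-base windows of GENCODE M21 transcripts (GRCm38), to which all 39 IDs matched without version. Promoters are from RefSeq (GRCm38.p6), and protein sequences were not used here. The alternatives tried were the DESeq2 1.42.0 test, upper quartile scaling, library size alone, no filter, a minimum of 10 counts in each library, fractions dropped, a replicate block, limma 3.58.1 (limma-trend) on log2 of the deposited signal plus 1 for genes with a mean of at least 5, each library left out, library sizes without mitochondrial genes and other thresholds. Library sizes without erythrocyte, muscle and neutrophil genes, the fit without genes that hold fractions and the class without Lgals3 were added after seeing the data. Sequence tables and plots were made in Python 3.11.15 with pandas 2.3.3 and matplotlib 3.10.9.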

Additional observations from a re-analysis of the deposited data

Results flagged for a closer look

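In 4 of the 84 groups of 4 libraries examined, 1 library lay far from the others by Dixon's ratio at the 95% level, and chance gives about 1 in 20, or 4.2. Ctss stood at 28.7 CPM in CAC replicate 3 against 16.2 to 18.2 CPM in the other CAC libraries. Ms4a6c stood at 1.78 CPM in CTR replicate 1 against 0.791 to 0.873 CPM in the other CTR libraries. Spi1 stood at 3.56 CPM in CTR replicate 1 against 1.64 to 1.96 CPM. Lilrb4a stood at 0.58 CPM in CAC replicate 3 against 1.04 to 1.07 CPM in the other CAC libraries, a gap of about 1 or 2 reads. The number of libraries that stood apart was close to the number chance gives.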

How the results depend on the processing

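The count of 2 marker genes past the adjusted threshold was also 2 with DESeq2, limma-trend, other normalizations, fractions dropped, the stricter filter and other library sizes. It was 3 without the genes that hold fractions of reads, 6 with no filter, 1 at a threshold of 0.01 and 4 at 0.1, and ranged from 0 (without CAC replicate 3) to 4 (without CTR replicate 3) with 1 library left out, with 1 called without CTR replicate 2. The 11 genes with an unadjusted p under 0.05 became 17 with no filter and 14 with DESeq2. Over all genes, 92 calls became 351 with no filter and ranged from 42 (without CTR replicate 1) to 135 (without CTR replicate 3), with 60 without CAC replicate 3. The calls in the related gene lists went from 7 to 12 with no filter. The lipid-associated log2 ratio of 0.53 became 1.07 without Lgals3. With fractions dropped, 2 of the low genes (Ly6c2 and Lilrb4a) had separate groups instead of 0. The share of all low genes that separate at that setting is not given here, so this count is not read as a result. On Lilrb4a, CAC replicates 1 and 2 then held 1 count, as did every CTR library. That count equals 0.535 and 0.527 CPM in these CAC libraries and 0.218 to 0.411 CPM in CTR. The sign of Cx3cr1 turned with limma-trend (0.03) and ranged from -0.17 to 0.26 with 1 library left out, as did Sirpa (-0.53 to 0.19), Ccr2 (-0.06 to 0.30), Igkc (-0.13 to 0.24), Irf8 (-0.06 to 0.40) and C1qc (-0.01 to 0.55). No tested marker gene above 0 other than Ccr2 changed sign under these alternatives. The causes were not tested, apart from the number of genes tested with no filter. At 1823167 to 4827956 counts per library, 21 of the 39 genes could not enter the fit.

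CTR and CAC libraries share replicate numbers 1 to 4, which the labels tie to no litter, day or batch. Deviations of same-numbered libraries correlated at 0.031, -0.023, 0.028 and 0.036, and not every library correlated best with its own number, so the numbers were not taken as pairs. With the replicate block, 2 marker genes were called, 10 had an unadjusted p under 0.05, and calls over all genes rose from 92 to 140. Of the genes of other lists, Myh4 (adjusted p = 0.0122) and Tnnt3 (0.0171) passed with the block.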
